A study of Mus musculus with 6 samples.

Results

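The genes described here are the nuclear-encoded subunits of the mitochondrial respiratory chain and ATP synthase in a phosphoTRAP experiment on warm-challenged mice. They were chosen by symbol alone, as the gene entries whose names begin with Ndufa, Ndufb, Ndufc, Ndufs or Ndufv (complex I), Uqcr (complex III), Cox4 to Cox8 (complex IV) or Atp5 (complex V), without the Ndufaf assembly factors and Cox4nb. This rule took 77 of the 13724 gene entries, of which 37 belonged to complex I, 8 to complex III, 15 to complex IV and 17 to complex V. The symbols Atp5s, Atp5sl and Cox7a2l carry the name of a complex without being established subunits of it, and they were kept because the rule takes them. Ndufa4, now counted as a subunit of complex IV, was kept with complex I by its symbol.

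All libraries came from wild type mice of the strain C57Bl6/J that had been kept in the warm, and no group at another temperature enters the comparison. The dissected piece was the anterior hypothalamus, which the labels call preoptic neurons. For each of 3 numbered warm challenges there was an input library, made from total RNA, and a library of the RNA pulled down with an antibody against ribosomal protein S6 phosphorylated at sites 244 and 247, the immunoprecipitate or IP. S6 is phosphorylated in active neurons. The pair compares RNA pulled down with phosphorylated S6, from whichever cells held it, with total RNA of the whole piece of tissue. No label says how many animals a library holds or whether the challenges used separate animals, so the p-values measure the spread between these libraries, which may in part be technical.

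Complex I passes electrons from NADH to ubiquinone, complex III passes them on to cytochrome c, and complex IV hands them to oxygen, while all 3 move protons across the inner mitochondrial membrane. Complex V lets the protons flow back and makes ATP, the main energy supply of neurons, whose ion pumps and synapses consume most of it. Each complex joins a few large catalytic subunits to many small accessory ones. Each also holds protein made from mitochondrial DNA rather than from the nuclear genes treated here.

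The nuclear factor NRF1 is a textbook activator of respiratory chain genes, and its palindromic core shows what some of these genes share in sequence. Promoter windows from RefSeq (build GRCm38.p6, 250 bases upstream of the gene start, 1 window per gene) were matched by symbol for 66 of the 77 genes. The letters CGCATGCG, which read the same on both strands, stood in 6 of the 66 windows, or 9.09%, against 428 of 27025 windows of all RefSeq genes, or 1.58%. Those windows were not limited to genes of these data, nor matched for expression or base content. The 6 genes were Atp5g2, Atp5k, Atp5l, Cox6a1, Ndufa11 and Ndufa8. The stretches around the match in a subunit of complex V, of complex IV and of complex I and in a c-ring gene are printed 5′ to 3′ on the strand of the gene, with the match in capitals.
Atp5k, chr5:108434411-108434478, minus strand: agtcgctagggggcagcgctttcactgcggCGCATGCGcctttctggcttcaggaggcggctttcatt
Cox6a1, chr5:115349082-115349149, minus strand: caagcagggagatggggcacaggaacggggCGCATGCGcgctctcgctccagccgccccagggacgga
Ndufa11, chr17:56717673-56717740, plus strand: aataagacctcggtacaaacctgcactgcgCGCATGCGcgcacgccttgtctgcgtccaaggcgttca
Atp5g2, chr15:102671051-102671118, minus strand: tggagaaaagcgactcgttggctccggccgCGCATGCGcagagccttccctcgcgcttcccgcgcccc
The match began 49 bases before the start of Atp5k, 161 before that of Cox6a1, 59 before that of Ndufa11 and 41 before that of Atp5g2. The letters CCGGAAG, the core bound by ETS factors such as NRF2 (GABP), stood on either strand in 10 of the 66 windows (15.2%) and in 7.05% of all windows. Of these 10 genes, Atp5l and Cox6a1 held both motifs, and the others were Atp5e, Atp5h, Cox6b1, Ndufb6, Ndufb7, Ndufs3, Uqcr11 and Uqcrh. The letters AAGATGG, the core of YY1, were in 0 of the 66 windows and in 4.53% of all windows. Bases past the gene start were not searched, so this 0 holds for the upstream part only. No binding was measured in this study, and a match of letters is a description only.

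Values are RPKM, which scale reads to gene length and library size, and levels of different genes are set side by side on this scale. The cDNA was amplified and the gene models are not given, so such comparisons are approximate. Summed RPKM per library lay between 374708 and 496125, and the read depth is unknown. As a check on the labelled tissue, 12 of 14 neuron markers were tested and their summed level lay between 4581 and 6230 RPKM in the inputs and between 4474 and 7950 RPKM in IP. Much of each sum was Snap25, at 2790 to 4144 RPKM in the inputs and 2063 to 5392 RPKM in IP. The inputs also held 1136 to 1262 RPKM of 12 oligodendrocyte markers (388 to 589 RPKM in IP) and 314 to 428 RPKM of 10 astrocyte markers (294 to 320 RPKM in IP), so the dissected tissue was not neurons alone. Of the 12 neuron markers tested, 0 were higher or lower in IP by limma, while 5 had an unadjusted p under 0.05 and 10 had a fold above 0. Of the activity markers, 9 of 10 were higher in IP, and of the oligodendrocyte markers 8 of 12 were lower (limma). These calls compare pulled-down RNA with total RNA, so they do not give the number of cells of a type or the RNA per cell.

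Respiratory chain genes were among the more abundant transcripts, and together they took 5.37% ± 1.15 of the summed RPKM in the inputs and 6.89% ± 2.21 in IP (SD, n = 3 each). The single shares were 5.78%, 6.26% and 4.08% in inputs 1, 2 and 3 and 4.52%, 8.90% and 7.24% in IP 1, 2 and 3. Input 3 and IP 1 held the lowest shares of their fractions, and the fractions overlapped. An exact two-sided permutation test of the share gave p = 0.4, where the smallest p that 3 against 3 libraries allow is 0.1. The median gene of the 77 stood at 270, 302 and 145 RPKM in the inputs and at 155, 398 and 261 RPKM in IP. In each library the highest of them was Cox7c or Atp5b, at 1318 to 2402 RPKM.

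**Figure D1:**
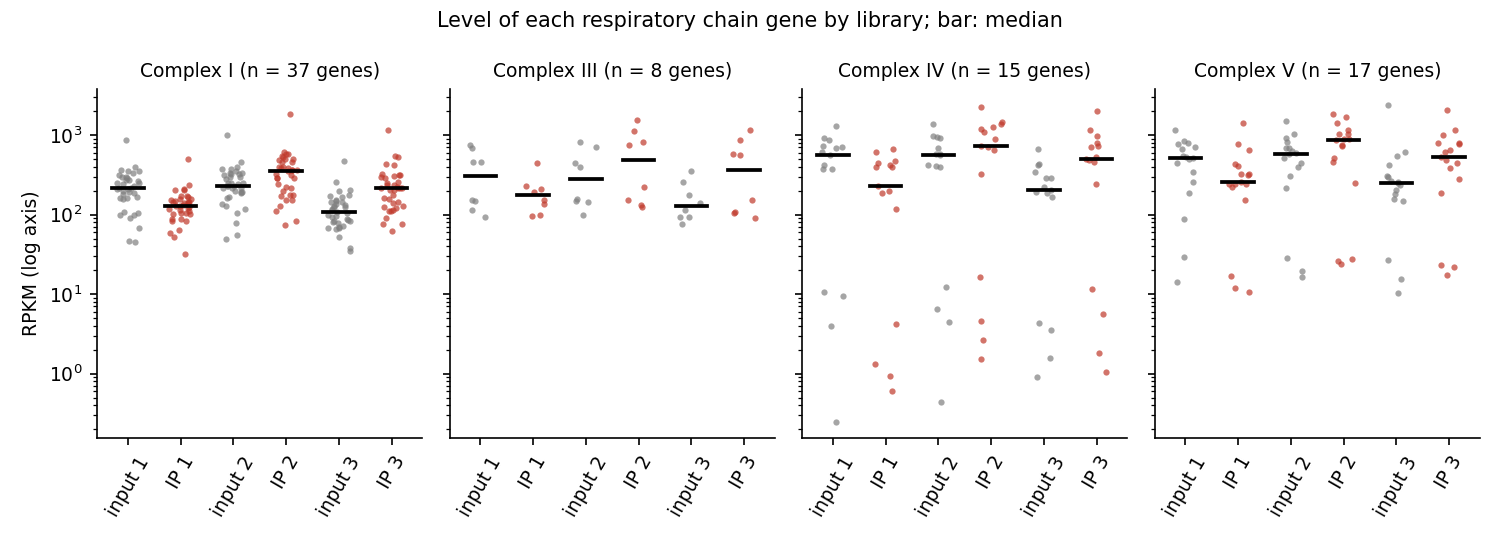
RPKM (log axis) of each respiratory chain gene in the 6 libraries, by complex, with inputs in grey and IP libraries in red and a black bar for the median. Within the inputs the bar is lowest in input 3 and within IP it is lowest in IP 1, for each of the 4 complexes.

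No respiratory chain gene passed the test of IP against input. Of the 77 genes, 76 had at least 1 RPKM in 3 or more libraries and were tested, while Cox7b2, a testis isoform, was not. At an adjusted p under 0.05 (limma on log2(RPKM + 1), adjusted over 12328 genes), 0 of the 76 were higher in IP, where 0.892% of all genes were, and 0 were lower, where 3.29% of all genes were. At an unadjusted p under 0.05 there was 1, Ndufs1, or 1.32% of the 76, against 24.4% of all genes. Log2 folds of the 76 ran from -1.03 for Cox6b2 to 0.75 for Atp5g1, with a median of 0.25 beside -0.18 for all genes tested, and 61 were above 0. The median was 0.21 for complex I, 0.34 for complex III, 0.33 for complex IV and 0.10 for complex V. These directions rested on single libraries. Without input 3, 29 of the 76 folds were above 0, their median was -0.06, and complexes I, III, IV and V had medians of -0.12, -0.06, -0.05 and -0.06. Without IP 2, 31 were above 0, the median was -0.07, and the complexes had -0.09, -0.02, -0.06 and -0.11. Fitted folds had a median standard error of 0.45 among these genes and of 0.26 among all genes. In the inputs the highest library exceeded the lowest by a median of 2.22-fold for the respiratory chain and 1.42-fold for all genes, and in IP by 2.63-fold and 1.73-fold.

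What the genes shared was a pattern over the libraries. Within challenge 1 the median difference of IP minus input was -0.74 on the log2(RPKM + 1) scale, within challenge 2 it was 0.52 and within challenge 3 it was 1.07, where all genes had medians of -0.22, -0.17 and -0.17. Of the 76 genes, 61 (80.3%) were below the input in challenge 1 and above it in challenges 2 and 3, an order that 13.6% of all genes had. These 61 were 31 of 37 in complex I, 5 of 8 in complex III, 11 of 14 in complex IV and 14 of 17 in complex V. Input 3 was the lowest input for 66 genes (86.8%, against 37.6% of all genes), IP 1 the lowest IP library for 68 (89.5%, against 37.0%), and IP 2 the highest of the 6 libraries for 63 (82.9%, against 13.8%). IP lay above its input in all 3 challenges for 4 genes (5.26%), namely Atp5a1, Ndufs1, Ndufv1 and Uqcrc1, and for 14.0% of all genes. It lay below in all 3 for Atp5s and Cox6b2 (2.63%), and for 37.5% of all genes. All IP libraries were above all inputs for Ndufs1 and Uqcrc1 (2.63%, against 6.85% of all genes), and all were below for Atp5s (1.32%, against 23.5%). Challenge 1 thus ran against the other two, and the labels name no treatment that sets it apart.

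**Figure D2:**
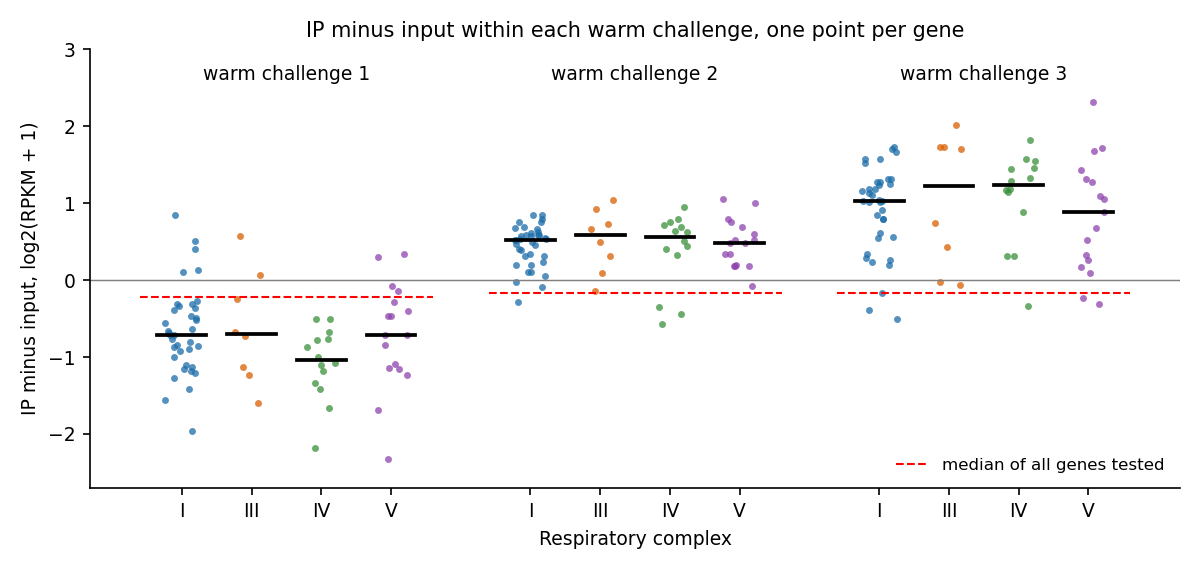
IP minus input on the log2(RPKM + 1) scale within each warm challenge, 1 point per respiratory chain gene, coloured by complex, with a black bar for the median of the complex and a dashed red line for the median of all genes tested. The 4 complexes lie below 0 in challenge 1, with medians of -0.71, -0.71, -1.04 and -0.72 for complexes I, III, IV and V, and above 0 in challenges 2 and 3.

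Complex I, the NADH dehydrogenase, had 7 of its catalytic core subunits in the table. The other 30 genes with its symbols, Ndufa4 among them, were counted as supernumerary. The core genes differed less by challenge, with medians of -0.27, 0.20 and 0.29 in challenges 1, 2 and 3, than the supernumerary genes, with -0.82, 0.54 and 1.15. Ndufs1, the iron-sulphur subunit that carries electrons away from the NADH site, stood at 46.0, 56.1 and 66.9 RPKM in the inputs and at 83.1, 84.0 and 76.6 RPKM in IP. Each IP library lay above every input, and the means were 56.4 ± 10.4 and 81.2 ± 4.03 RPKM (SD, n = 3 each). On the log2 scale the fold was 0.53 (SE 0.23), and its adjusted p, 0.188, was the smallest of the 76 genes. Ndufv1, which holds the flavin that accepts electrons from NADH, stood at 90.0, 117 and 94.3 RPKM in the inputs and at 129, 175 and 113 RPKM in IP. It was above its input in each challenge, although IP 3 lay below input 2, and its log2 fold was 0.45 (SE 0.26, adjusted p = 0.321).

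A further 4 core subunits of complex I followed the order of most genes, with smaller steps. They are Ndufs3, Ndufs7, Ndufs8 and Ndufv2, of which the last 3 bind iron-sulphur clusters. Ndufv2 stood at 167, 160 and 85.0 RPKM in the inputs and at 103, 172 and 126 RPKM in IP, so input 3 was the lowest library and IP 1 the next. Log2 folds of these 4 lay between -0.03 (Ndufs7) and 0.19 (Ndufs8), with adjusted p-values of 0.745 to 0.992.

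Supernumerary subunits surround the core and serve its assembly and stability. Ndufb11, in the membrane arm, had the highest fold of them, with 162, 168 and 71.1 RPKM in the inputs and 102, 293 and 178 RPKM in IP. Its log2 fold was 0.48 (SE 0.45, adjusted p = 0.546), and the fractions overlapped, as IP 1 lay below inputs 1 and 2. Ndufa8 had the lowest fold, -0.27 (SE 0.43, adjusted p = 0.742), with 192, 217 and 87.7 RPKM in the inputs and 87.1, 214 and 111 RPKM in IP. Its value in IP 2 was just under that in input 2, so it is 1 of the 6 genes of complex I outside the shared order. The widest swing among them was that of Ndufv3, a small subunit of the NADH-binding module, with 251, 249 and 67.8 RPKM in the inputs and 63.9, 365 and 218 RPKM in IP. From IP 1 to IP 2 this is 5.71-fold, yet the log2 fold between fractions was 0.09 (SE 0.67, adjusted p = 0.959). Ndufa11, whose promoter is printed above, stood at 97.8, 105 and 38.0 RPKM in the inputs and at 59.3, 152 and 90.2 RPKM in IP, again with input 3 and IP 1 low.

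Ndufa9 and Ndufa10, the largest supernumerary subunits, did not follow this order. Ndufa10 stood at 105, 138 and 146 RPKM in the inputs and at 115, 130 and 130 RPKM in IP, and Ndufa9 at 109, 192 and 147 RPKM and at 145, 199 and 112 RPKM. Input 3 was the highest input for Ndufa10, and for both genes the lowest input was input 1. Ndufa4, which is now counted as a subunit of complex IV, was the most abundant gene with a complex I symbol, with 879, 1017 and 474 RPKM in the inputs and 506, 1828 and 1157 RPKM in IP (fold on the log2 scale 0.44, SE 0.53, adjusted p = 0.653). Ndufab1, the mitochondrial acyl carrier protein that also serves lipoic acid synthesis, stood at 45, 48.7 and 34.4 RPKM in the inputs and at 31.7, 73.1 and 75.7 RPKM in IP. IP 2 and IP 3 were above every input and IP 1 was below every one (log2 fold 0.40, SE 0.34, adjusted p = 0.512). Without IP 1 its adjusted p was 0.0467 with a log2 fold of 0.80, and it was then the only 1 of the 76 to pass, where 3.62% of all genes were higher and 10.2% lower. Leaving out input 3 as well, an alternative added after the values were seen, left 0 of the 76 higher or lower by limma, where 3.74% of all genes were higher and 6.46% lower. At an unadjusted p under 0.05 there were then 10 of the 76 (13.2%), against 30.2% of all genes.

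**Figure D3:**
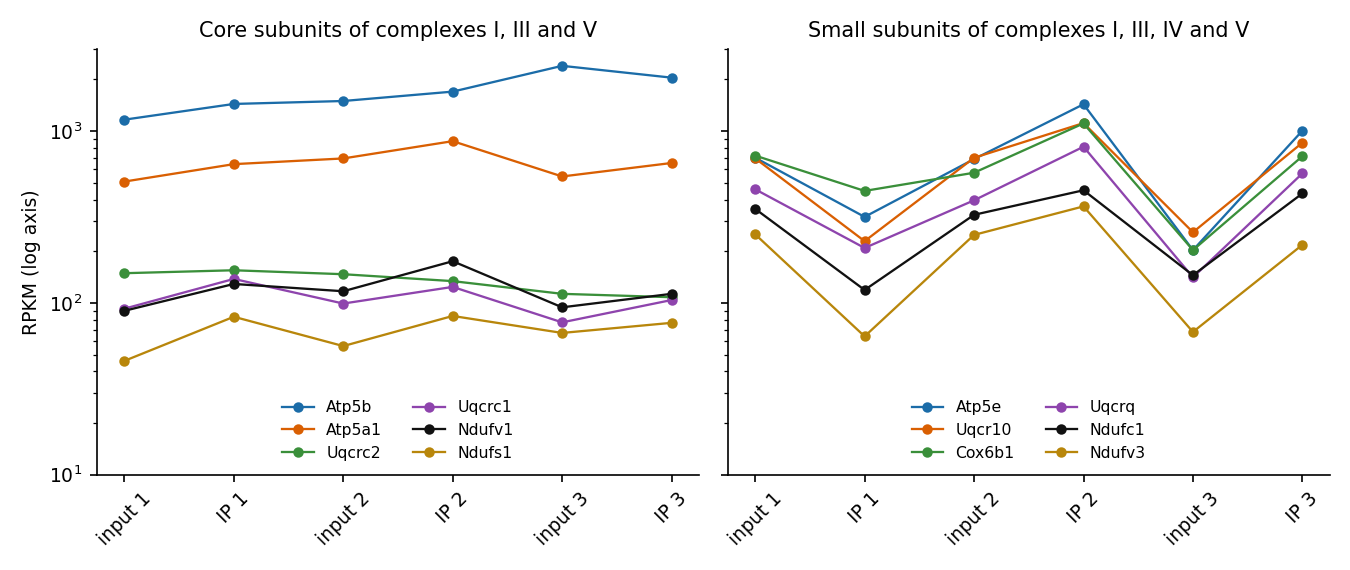
RPKM (log axis) of 6 core subunits (left) and 6 small subunits (right) in the 6 libraries, set side by side by challenge and chosen after their values were seen. The small subunits share low points in IP 1 and input 3, such as 317 and 203 RPKM for Atp5e, while Atp5b has its highest value, 2402 RPKM, in input 3.

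In complex III, the cytochrome bc1 complex, the large and the small subunits parted. Uqcrc1 and Uqcrc2 are the core proteins on the matrix side, and Uqcrfs1 is the Rieske iron-sulphur protein. Their median differences were 0.06, 0.09 and -0.03 in challenges 1, 2 and 3, and those of the 5 small subunits Uqcr10, Uqcr11, Uqcrb, Uqcrh and Uqcrq were -1.13, 0.73 and 1.73. Uqcrc1 stood at 92.6, 99.2 and 77.1 RPKM in the inputs and at 138, 124 and 104 RPKM in IP. Each IP library lay above every input, and IP 1 was the highest library rather than the lowest of its fraction (log2 fold 0.44, SE 0.24, adjusted p = 0.295). Uqcrc2 had 149, 147 and 113 RPKM in the inputs and 155, 134 and 108 RPKM in IP, and Uqcrfs1 had 116, 145 and 92.4 RPKM and 97.9, 154 and 90.4 RPKM. Both overlapped between fractions, with log2 folds of -0.05 (SE 0.26) and -0.06 (SE 0.29). Whether the large and small subunits differ was not tested.

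Uqcrh, the hinge protein that helps cytochrome c1 meet cytochrome c, stood at 751, 816 and 352 RPKM in the inputs and at 452, 1543 and 1145 RPKM in IP. Uqcrq stood at 459, 396 and 141 RPKM in the inputs and at 209, 812 and 568 RPKM in IP. IP 2 and IP 3 were above every input for both, and IP 1 was below inputs 1 and 2. Their log2 folds, the highest of the complex, were 0.63 (SE 0.53, adjusted p = 0.506) and 0.64 (SE 0.58, adjusted p = 0.541).

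Complex IV, cytochrome c oxidase, keeps its catalytic subunits in mitochondrial DNA, so its nuclear genes encode accessory and regulatory ones. The 10 subunits common to most tissues had median differences of -0.82, 0.66 and 1.31 in challenges 1, 2 and 3, and each of the 10 was below its input in challenge 1 and above it in challenges 2 and 3. Cox6b1, on the side of the complex that faces cytochrome c, stood at 721, 573 and 203 RPKM in the inputs and at 449, 1110 and 715 RPKM in IP (fold on the log2 scale 0.70, SE 0.53, adjusted p = 0.458). Cox4i1, the common form of the subunit that binds ATP as a regulator, stood at 933, 966 and 438 RPKM in the inputs and at 660, 1381 and 968 RPKM in IP (fold on the log2 scale 0.39, SE 0.45, adjusted p = 0.647). Cox6a1, with the NRF1 core in its promoter, stood at 717, 686 and 424 RPKM in the inputs and at 418, 1198 and 1165 RPKM in IP (fold on the log2 scale 0.49, SE 0.48, adjusted p = 0.566). For these 3 genes input 3 was the lowest input and IP 1 the lowest IP library. Cox8a stood at 606, 573 and 224 RPKM in the inputs and at 228, 722 and 508 RPKM in IP, where input 3 and IP 1 were nearly equal and both low (fold on the log2 scale 0.03, SE 0.52, adjusted p = 0.981). Cox7a2l, known for its part in joining complexes III and IV into supercomplexes, stood at 380, 407 and 195 RPKM in the inputs and at 119, 320 and 242 RPKM in IP. It was above its input in challenge 3 only (log2 fold -0.57, SE 0.43, adjusted p = 0.458).

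Several complex IV subunits have an alternative gene best known from muscle, heart or testis, and these stood far below the common forms. Cox6a2, the heart and muscle form, had 3.92, 6.51 and 4.30 RPKM in the inputs and 0.94, 4.55 and 5.57 RPKM in IP, and the ratio of Cox6a1 to Cox6a2 lay between 98.6 and 445. Cox6b2, the testis form, had 9.56, 4.42 and 1.58 RPKM in the inputs and 1.33, 2.66 and 1.04 RPKM in IP. Its log2 fold of -1.03 (SE 0.46, adjusted p = 0.207) was the lowest of the 76, and input 1 stood apart from the other 5 libraries. The ratio of Cox6b1 to Cox6b2 lay between 75.4 and 689. Cox7a2 exceeded the muscle form Cox7a1 by 34 to 47.2 times, the narrowest range of the 4 such pairs, and Cox7a1 followed the shared order with 10.7, 12.2 and 3.57 RPKM in the inputs and 4.17, 16.6 and 11.5 RPKM in IP. Cox7b2 lay between 0.244 and 1.84 RPKM, and its partner Cox7b exceeded it by 209 to 1541 times. Of 6 muscle genes listed for comparison, 3 were tested, summing to 8.55 to 32.2 RPKM per library, with 0 higher or lower by limma and 1 at an unadjusted p under 0.05. Cox4i2, Cox8b, Cox8c and Ndufa4l2 were not analysed here.

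**Figure D4:**
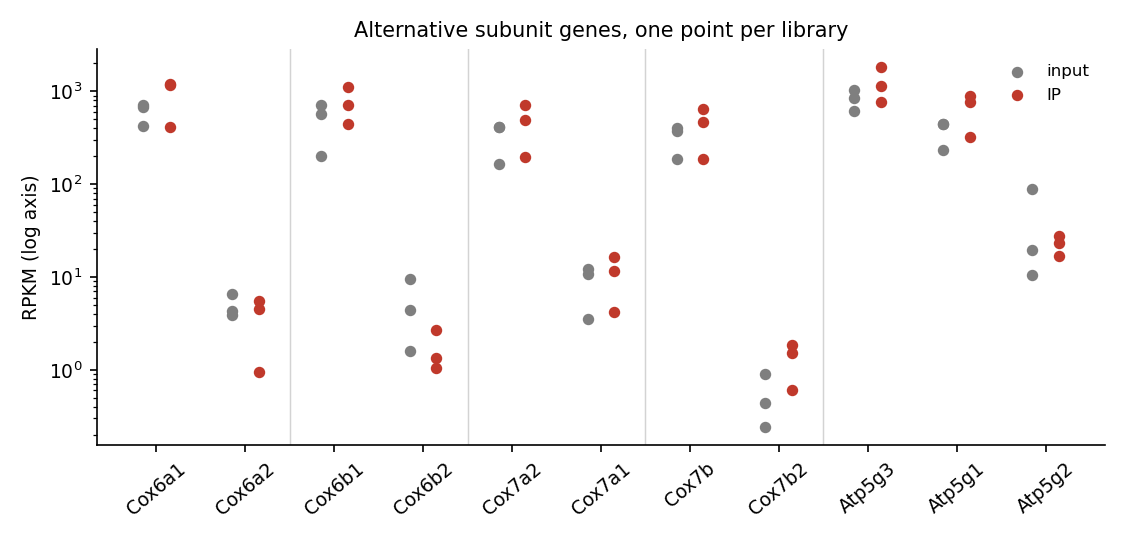
RPKM (log axis) of alternative genes for the same subunit, 1 point per library, inputs in grey and IP libraries in red. Cox6a1, Cox6b1, Cox7a2 and Cox7b lie above their partners in all 6 libraries, and among the c-ring genes Atp5g3 and Atp5g1 lie above Atp5g2.

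In complex V, the ATP synthase, Atp5a1 and Atp5b form the catalytic head. Atp5b, the subunit with the catalytic sites, stood at 1167, 1499 and 2402 RPKM in the inputs and at 1441, 1700 and 2050 RPKM in IP. Input 3 was its highest library, where it was the lowest input for 66 of the 76 genes, and the log2 fold was 0.09 (SE 0.44, adjusted p = 0.936). Atp5a1 stood at 509, 694 and 545 RPKM in the inputs and at 643, 875 and 653 RPKM in IP. It was above its input in each challenge while the fractions overlapped (log2 fold 0.31, SE 0.33, adjusted p = 0.607). Both proteins enter the head in equal numbers, whereas the RPKM of Atp5b was 1.94 to 4.41 times that of Atp5a1, with the widest ratio in input 3. Atp5e, a small subunit of the central stalk, stood at 701, 688 and 203 RPKM in the inputs and at 317, 1435 and 1007 RPKM in IP. Its differences of -1.14, 1.06 and 2.31 in challenges 1, 2 and 3 gave a fold on the log2 scale of 0.74 (SE 0.65, adjusted p = 0.521).

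The c-ring, the rotor that protons turn, is built from 1 mature protein encoded by Atp5g1, Atp5g2 and Atp5g3. Because these genes and their processed copies are alike in sequence, reads may have been split between them, and their values are uncertain to that extent. Atp5g3 stood at 851, 1043 and 618 RPKM in the inputs and at 770, 1822 and 1148 RPKM in IP (fold on the log2 scale 0.52, SE 0.43, adjusted p = 0.503). Atp5g1 stood at 449, 444 and 234 RPKM in the inputs and at 325, 890 and 773 RPKM in IP, with the highest log2 fold of the 76 genes, 0.75 (SE 0.46, adjusted p = 0.345). Atp5g2, whose promoter is printed above, stood at 88.5, 19.7 and 10.4 RPKM in the inputs and at 16.9, 27.9 and 23.3 RPKM in IP (fold on the log2 scale -0.25, SE 0.62, adjusted p = 0.846). The log2 fold of Atp5g2 was 0.60 without input 1 and -0.89 without input 3, so its direction turned on 1 library. Input 1 was 8.47 times input 3 for Atp5g2, the widest range of any of these genes in the inputs. Atp5g3 exceeded Atp5g1 by 1.49 to 2.64 times in the 6 libraries.

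The peripheral stalk, which holds the head still, had median differences of -0.78, 0.26 and 0.60 over its 4 genes Atp5f1, Atp5h, Atp5j and Atp5o. The small membrane subunits Atp5j2, Atp5k and Atp5l had -1.15, 0.52 and 1.43. Atp5k, the first promoter printed above, stood at 777, 814 and 298 RPKM in the inputs and at 241, 1166 and 803 RPKM in IP, with input 3 and IP 1 low and a fold on the log2 scale of 0.09 (SE 0.62, adjusted p = 0.956). Atp5s, known as coupling factor B, stood at 29.4, 28.1 and 27.0 RPKM in the inputs and at 11.9, 26.5 and 21.7 RPKM in IP. Each IP library lay below every input, and the inputs were within 1.09-fold of each other, in contrast to most subunits (log2 fold -0.54, SE 0.29, adjusted p = 0.283).

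Of the 76 genes, 15 did not show the shared order of challenges. Among them were Ndufs1, Ndufv1, Ndufa8, Ndufa9 and Ndufa10 in complex I, Uqcrc1, Uqcrc2 and Uqcrfs1 in complex III, Cox6a2, Cox6b2 and Cox7a2l in complex IV, and Atp5a1, Atp5b and Atp5s in complex V. Most of those from complexes I, III and V are large or catalytic subunits, and those from complex IV are 2 low isoform genes and the supercomplex factor. This grouping was made after the values were seen.

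Other mitochondrial genes were read from lists to see which shared the pattern. The 4 genes of complex II, succinate dehydrogenase, had medians of -0.55, 0.08 and 0.01 in challenges 1, 2 and 3. The 18 enzymes of the tricarboxylic acid cycle and pyruvate dehydrogenase, which feed the chain, had 0.12, 0.05 and -0.28, and the 15 tested regulators of mitochondrial biogenesis, such as Ppargc1a and Nrf1, had -0.13, -0.28 and -0.24. The 7 related genes listed outside the symbol rule, not all of them subunits, had -0.43, 0.29 and 0.48. They were Cyc1, Cycs, Usmg5, Atpif1, 2010107E04Rik, Coq10b and Etfdh. Of these 7, 4 were below the input in challenge 1 and 3, namely Cyc1, Coq10b and Etfdh, were above it. Usmg5, with 731, 671 and 220 RPKM in the inputs and 302, 1105 and 653 RPKM in IP, had the order of the subunits. So did 2010107E04Rik, with 1058, 1038 and 365 RPKM in the inputs and 403, 1743 and 1107 RPKM in IP. No gene of these 4 lists was higher or lower by limma. At an unadjusted p under 0.05 there were 0 for complex II, 1 for the cycle, 2 for the regulators and 0 for the genes outside the rule. Of the listed assembly factors, 11 were tested for complex I, 4 for complex III, 12 for complex IV and 3 for complex V, with 0 higher or lower and 2, 0, 4 and 1 at an unadjusted p under 0.05. Their medians in challenges 1, 2 and 3 were -0.54, -0.11 and 0.12 for complex I assembly, -0.23, -0.11 and -0.32 for complex III, -0.54, -0.17 and 0.30 for complex IV and -0.39, -0.39 and -0.19 for complex V. Cox17, a copper chaperone of complex IV named after its values were seen, had the order of the subunits, with 388, 427 and 157 RPKM in the inputs and 122, 562 and 427 RPKM in IP. Among 12 mitochondrial carriers and porins, 1 was lower and 0 higher. It was Slc25a27, a neuronal member of the uncoupling protein family, with a log2 fold of -0.92 (SE 0.20, adjusted p = 0.0426), a call that ended in 10 of 18 alternatives, among them median scaling (adjusted p = 0.0893) and the omission of any 1 library but IP 1 (adjusted p = 0.0897 to 0.174).

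**Figure D5:**
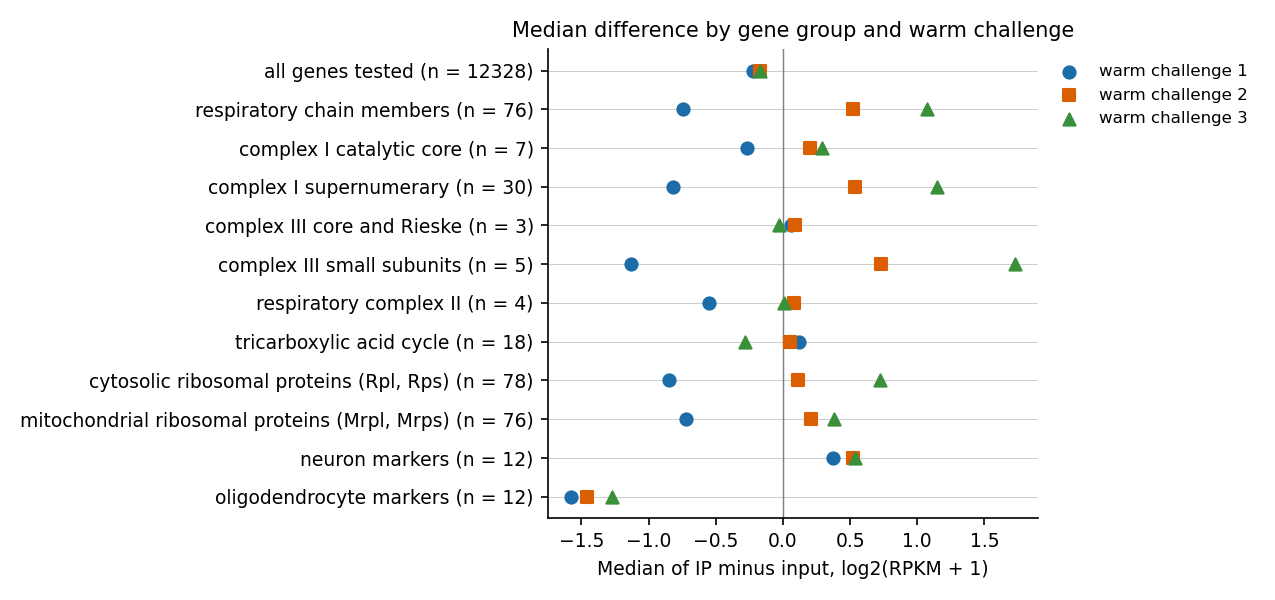
Median of IP minus input on the log2(RPKM + 1) scale for 12 gene groups, 1 symbol per warm challenge. Respiratory chain genes and both kinds of ribosomal protein genes spread from below 0 in challenge 1 to above 0 in challenge 3, while the tricarboxylic acid cycle, at 0.12, 0.05 and -0.28, and neuron markers, at 0.37, 0.52 and 0.54, do not.

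Ribosomal protein genes had a like order of challenges. The 78 cytosolic ones had medians of -0.85, 0.11 and 0.72 in challenges 1, 2 and 3, and the 76 mitochondrial ones -0.72, 0.21 and 0.38, with 0 of either higher or lower by limma and 0 and 2 at an unadjusted p under 0.05. In input 3 the median gene of the respiratory chain lay at -1.08 on the log2 scale against the mean of inputs 1 and 2, cytosolic ribosomal genes at -1.30 and mitochondrial ones at -0.69, where all genes lay at 0.02. In IP 1 the same medians against IP 2 and IP 3 were -1.05, -0.62 and -0.73, and 0.02 for all genes. The tricarboxylic acid cycle lay at 0.13 and -0.05. Among markers of other cells, the summed RPKM of the 3 tested haemoglobin genes, which mark red blood cells, was 49.8, 45.5 and 13.8 in the inputs and 200, 565 and 228 in IP, so that input 3 was lowest and IP 2 highest there too. All 3 were higher in IP by limma. The summed RPKM of oligodendrocyte markers was 1136, 1193 and 1262 in the inputs and 388, 557 and 589 in IP. That of neuron markers was 4581, 5172 and 6230 in the inputs and 4474, 6435 and 7950 in IP. Input 3 was the highest input in both sums, while IP 1 was the lowest IP library. Much of the neuron sum was Snap25, with 2790, 3127 and 4144 RPKM in the inputs and 2063, 3948 and 5392 RPKM in IP. By the medians used above, neuron markers lay at 0.25 in input 3 and -0.28 in IP 1. Oligodendrocyte markers lay at 0.09 and -0.10. The ependymal sum was 49.7, 38.9 and 17.3 RPKM in the inputs and 14.3, 17.5 and 9.55 RPKM in IP, with 1 of 5 genes lower. Microglia (4 tested, 0 higher or lower, 0 at an unadjusted p under 0.05) summed to 10.8 to 18.8 RPKM, astrocyte markers had 0 of 10 higher or lower and 4 at an unadjusted p under 0.05, and the vessel list had a single tested gene, Rgs5, which was lower. The part of these other cells, of library depth and of RNA quality in the pattern of the respiratory chain was not tested.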

How the data were processed

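Per the file headers, the deposited values are RPKM per gene on a linear scale, 1 column for each library. The submitters' processing notes name the build mm9. Which aligner, counting tool and gene models made them is not given in the sources used here. No listed RPKM is below 0.101, so genes under that level in any library are missed. Low values, compared between input 1 and each of the other 5 libraries, did not resolve into whole reads (14.4% to 17.6% of pairs within 1% of a whole-number ratio at the best trial depth, 6.90% to 7.22% at the median of the trial depths), so the depth is unknown and no counting interval is given. Per the labels' protocols, cDNA was amplified before library preparation.

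Genes that reached 1 RPKM in 3 or more libraries were tested as log2(RPKM + 1), a scale that understates folds of low genes. IP was compared with input in limma 3.58.1 (R 4.3.3, mean-variance trend, two-sided, no block), with Benjamini-Hochberg adjustment over 12328 genes and a threshold of 0.05. The fit was tested on simulated data. Summaries used Python 3.11.15. The titles give each input and its IP the same warm challenge number, and this was taken to pair them. Within pairs, deviations from the group means correlated across genes by 0.05, 0.61 and 0.27. Alternatives varied the pseudocount, the filter, the scaling, the trend and the pairing, and left out libraries.

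The genes, the lists and the tests were chosen with earlier results of these data known. Named in the text are the genes with the 2 highest and 2 lowest folds in each complex, isoform genes, catalytic subunits and list genes past the threshold. Others were named after their values were seen, and 1 gene that the rule names is not reported here. Promoter letters came from RefSeq windows of GRCm38.p6, a different build, matched by symbol.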

Additional observations from a re-analysis of the deposited data

How the results depend on the processing

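The result that 0 of the 76 respiratory chain genes were higher or lower in IP was recomputed under 18 alternatives, 2 of them added after the values were seen. The number higher was 1 (Ndufab1) without IP 1 and with median scaling (adjusted p = 0.0351), and 1 again without input 3 and IP 1 with median scaling (adjusted p = 0.0457), and leaving out single libraries gave 0 to 1. The number lower was 0 in each. With the replicate block, input and IP are paired by warm challenge. Of all genes tested, 164 were then higher and 492 lower, against 110 and 406 without it. Among the 76 respiratory chain genes 0 were higher and 0 lower, so the pairing changed no call of theirs. Their smallest adjusted p was 0.128 (Cox6b2) and their median log2 fold was 0.25. The median log2 fold of these genes turned negative without input 3 (-0.06) and without IP 2 (-0.07), was 0.64 without IP 1 and 0.50 without input 2, and was 0.44 with median scaling and 0.20 with quantile normalization. Median scaling moved the median of all genes from -0.18 to -0.02 and left 121 genes higher and 128 lower, against 110 and 406. Of 32 named genes, 14 had a fold that changed sign under some alternative, with none past the threshold on either side. The unknown depth limits what can be said of the low isoform genes Cox6a2, Cox6b2 and Cox7b2.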
